A study of Homo sapiens with 24 samples.

Results

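The 10 genes described here, VEGFA, CA9, BNIP3, ADM, NDRG1, EGLN3, ANKRD37, P4HA1, PDK1 and SLC2A1, are targets of the hypoxia-inducible factors (HIF) other than the core glycolytic enzymes. They were taken by symbol from tables of 60658 genes, and all 10 symbols were found. Of these, 9 reached 10 counts in at least 3 of the 24 libraries, as did 20172 genes in all. The exception was CA9. The hypoxia-inducible factors are transcription factors whose alpha subunits are hydroxylated by oxygen-dependent enzymes, bound by the VHL protein and degraded while oxygen is plentiful. When oxygen is short the alpha subunit persists, pairs with ARNT and binds short sites with the core RCGTG. In culture these genes are known to respond to dense growth, when cells use oxygen faster than it reaches them through the medium.

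Poly(A) RNA was sequenced from human cells labelled SH-SY5Y, a neuroblastoma line, in which the circular RNA ciRS-7 (CDR1as) had been depleted. There were 4 ways of depleting it, called setups here, each with a knockdown group (KD) and a non-targeting control group (NTC) of 3 libraries, so 8 groups. In the agoshRNA groups a plasmid expressed a short hairpin that Argonaute cuts to its active form. For the gRNA and pre-gRNA groups a plasmid for CasRx, an RNA-guided RNA nuclease, joined to GFP was transfected together with a plasmid for the mature or the precursor guide. In the syn-gRNA groups the guide was chemically synthesised, and its delivery is not described in the labels. Plasmids were delivered with a Lipofectamine reagent, the medium was changed after a night, and RNA was taken 48 h after transfection. Controls received the same kind of agent without a ciRS-7 target. Each library carries a letter, A, B or C, whose meaning the labels do not give. Letters are not linked to the replicate numbers, have no order, and the same letter in different setups is not assumed to be a shared batch. The labels do not say that libraries of a group came from separate cultures, so p-values measure the spread between these libraries, which may be technical. A poly(A) library does not read a circular target, so depletion itself was not checked here.

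Total counts ran from 10994974 to 16233777 per library, and mitochondrial genes took 3.36% to 5.13% of them. The label was compared with marker genes. Of 7 noradrenergic neuroblastoma markers, GATA2, TBX2, HAND1 and CHRNA3 had a mean above 10 counts scaled to the total of the library (CPM). GATA2 led these 4 at 35.7 CPM, while PHOX2A, STMN2 and ELAVL4 had at most 5, 3 and 2 counts in any library. Of 5 kidney-lineage genes described in HEK293 cells 4 were above 10 CPM, led by HOXA9 at 98.2 CPM. The other, PAX8, had at most 1 count in any library. Of 5 mesenchymal genes 4 were above 10 CPM, led by VIM at 872 CPM. The defining neuronal markers STMN2 and ELAVL4 were therefore close to absent, and the part of cell identity in the results below was not tested. In bulk RNA, fewer cells that express a gene and less of its RNA per cell cannot be told apart.

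The HIF core motif was looked for on both strands, as ACGTG and as GCGTG, in the 250 bases before the annotated starts in RefSeq (GRCh38.p14). Windows were read for 8 of the 10 genes, giving 9 windows since PDK1 has a pair of starts. None was read for VEGFA or NDRG1, so their promoters are not described here. Either motif was found in 6 of 9 windows (66.7%), against 43.2% of 35116 promoters of the same length. ACGTG was in 5 (55.6%, against 18.5% of all) and GCGTG in 2 (22.2%, against 32.2% of all). The 5 windows below were picked to span the range from the most matches to none, among genes whose levels are given library by library further on. Capitals mark ACGTG or GCGTG on either strand, and CACGTG reads as a match on both. They are from ANKRD37 at chr4:185396591-185396840 (plus strand, 3 matches), BNIP3 at chr10:131981924-131982173 (minus strand, 6 matches), P4HA1 at chr10:73096867-73097116 (minus strand, 1 match), the second PDK1 start at chr2:172555840-172556089 (plus strand, 2 matches) and SLC2A1 at chr1:42958869-42959118 (minus strand, 0 matches).
ANKRD37: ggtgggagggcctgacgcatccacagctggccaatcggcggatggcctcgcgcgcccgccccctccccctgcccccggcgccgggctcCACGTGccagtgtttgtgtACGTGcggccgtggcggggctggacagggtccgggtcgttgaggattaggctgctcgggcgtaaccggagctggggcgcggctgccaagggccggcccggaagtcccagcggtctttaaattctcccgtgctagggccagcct
BNIP3: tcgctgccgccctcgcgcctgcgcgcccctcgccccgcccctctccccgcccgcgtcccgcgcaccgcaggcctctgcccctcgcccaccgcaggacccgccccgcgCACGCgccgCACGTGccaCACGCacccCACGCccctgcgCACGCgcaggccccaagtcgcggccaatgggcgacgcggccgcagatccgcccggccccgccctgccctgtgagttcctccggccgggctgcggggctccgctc
P4HA1: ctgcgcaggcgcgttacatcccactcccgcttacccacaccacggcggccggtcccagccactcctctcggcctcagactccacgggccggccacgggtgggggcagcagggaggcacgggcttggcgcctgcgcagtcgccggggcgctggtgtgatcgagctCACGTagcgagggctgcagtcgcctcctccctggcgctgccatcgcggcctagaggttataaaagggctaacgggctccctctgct
PDK1: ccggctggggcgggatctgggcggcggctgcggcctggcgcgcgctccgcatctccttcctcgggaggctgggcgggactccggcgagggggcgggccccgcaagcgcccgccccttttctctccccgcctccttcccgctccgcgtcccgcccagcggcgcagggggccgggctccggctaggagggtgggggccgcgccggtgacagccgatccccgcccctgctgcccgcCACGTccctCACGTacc
SLC2A1: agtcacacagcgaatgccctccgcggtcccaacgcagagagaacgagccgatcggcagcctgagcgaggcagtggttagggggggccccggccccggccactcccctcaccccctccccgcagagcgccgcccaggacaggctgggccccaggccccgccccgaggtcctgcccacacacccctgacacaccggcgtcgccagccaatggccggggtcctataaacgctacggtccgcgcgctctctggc
A match describes the letters of the window and does not show that a factor binds there. BNIP3 had the most matches, 2 of ACGTG and 4 of GCGTG in a cluster, and SLC2A1 had none in this window.

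CA9, a cell-surface carbonic anhydrase that is strongly induced in hypoxic tumour cells, was at or near 0 throughout. It had 0 to 3 counts per library and 20 counts over the 24 libraries, with 0 counts in 11 of them. A count of 0 allows up to 3 counts, or 0.185 CPM in the deepest and 0.273 CPM in the shallowest library, counting error only. The gene (9:35673853-35681156 in hg19, plus strand) overlaps ARHGEF39 on the other strand, which had a mean of 29.0 CPM, and the non-stranded libraries cannot assign reads in the overlap. No group difference in CA9 was detectable at this depth.

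The other 9 genes were read at between 8.52 and 195 CPM on average. Per kilobase of exon (RPKM), P4HA1 was highest at a mean of 63.1, followed by BNIP3 at 32.7, NDRG1 at 17.4 and SLC2A1 at 10.4. VEGFA (7.79 RPKM), ANKRD37 (7.77) and ADM (6.35) lay close together, and PDK1 (5.01) and EGLN3 (1.16) were lowest. Between the lowest and the highest of the 24 libraries the genes differed widely: EGLN3 7.79-fold, SLC2A1 7.57-fold, PDK1 7.25-fold and P4HA1 6.3-fold in CPM, but VEGFA only 1.77-fold. ANKRD37 differed 4.71-fold, ADM 4.23-fold, NDRG1 4.07-fold and BNIP3 3.09-fold. When the 8 group means of a gene were ordered, at least 6 of the 7 neighbouring pairs differed by less than the larger of their SDs for each of the 9 genes.

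Whether depletion of ciRS-7 moved these genes was asked in each setup by comparing KD with NTC. None of the 9 genes passed in any setup. Their log2 fold changes (KD minus NTC) ran from -0.19 to 0.17 with agoshRNA, -0.05 to 0.42 with gRNA, -0.12 to 0.15 with pre-gRNA and -0.09 to 0.19 with syn-gRNA. DESeq2's Wald test called 0 genes of all tested at an adjusted p under 0.05 in each setup (0.0%). At an unadjusted p under 0.05 it had 0 genes with agoshRNA, 17 with gRNA, 2 with pre-gRNA and 55 with syn-gRNA, 0 of them members, and edgeR called 0 genes and had 3, 34, 11 and 176 at that level, again 0 of them members. The authors' deposited table also has an adjusted p of 1.0 for each of the 10 genes in each setup, with log2 fold changes of -0.19 to 0.37 for the 9 detected genes.

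The log2 fold change farthest from 0 in the comparison of KD with NTC was that of SLC2A1, the glucose transporter GLUT1 of the plasma membrane, in the gRNA setup. Its KD libraries A, B and C were at 100, 49.7 and 34.4 CPM and its NTC libraries at 72.8, 48.7 and 31.9 CPM. The groups overlap, and A was the high library in both. The log2 fold change was 0.42 ± 0.50 (SE, n = 3 per group, DESeq2 adjusted p = 1.0), and it was -0.20 without KD library A. In the same setup the lowest value was that of VEGFA, the angiogenic growth factor, at -0.05 ± 0.31.

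With agoshRNA the extremes were SLC2A1 at 0.17 ± 0.65 and ADM, the vasodilator peptide adrenomedullin, at -0.19 ± 0.51 (log2, SE). With pre-gRNA they were ANKRD37, an ankyrin-repeat protein, at 0.15 ± 0.37 and SLC2A1 at -0.12 ± 0.60. With syn-gRNA they were ANKRD37 at 0.19 ± 0.54 and NDRG1, a stress-inducible cytoplasmic protein, at -0.09 ± 0.16. SLC2A1 thus had both signs among setups, and each of these values, from a model without the letter, was smaller than its SE. The median log2 fold change over the 9 genes was -0.04, 0.02, 0.07 and 0.07, against 0.06, 0.02, 0.01 and 0.0 over all genes tested.

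In no setup did the KD and NTC libraries of a member fall into separate ranges, while 0.87% of all genes did so with agoshRNA, 2.3% with gRNA, 1.13% with pre-gRNA and 4.88% with syn-gRNA. The median SE over the members was 0.65, 0.42, 0.42 and 0.24 log2 in these setups without the letter in the model. With the letter as a block, which pairs KD and NTC libraries, it was 0.18, 0.21, 0.12 and 0.11 log2, and 0 members were called. Some log2 fold changes then exceeded their SE. PDK1 became the lowest member with agoshRNA at -0.30 ± 0.19, with ADM at -0.13 ± 0.23. SLC2A1 with gRNA was at 0.30 ± 0.21 and ANKRD37 with syn-gRNA at 0.18 ± 0.14. SLC2A1 with agoshRNA (0.11 ± 0.18) and with pre-gRNA (-0.11 ± 0.12) stayed below its SE. The KD effect itself was also compared between setups in 1 model of 24 libraries. Differences of the log2 fold change ran from -0.45 to 0.53 over members and the 6 pairs of setups, and DESeq2 called 0 members and 0 genes (0.0%) in each pair.

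Between setups NDRG1, SLC2A1 and EGLN3 had lower means in both syn-gRNA groups than in the 6 plasmid groups, but none of the 3 passed the test over all genes in the model of 24 libraries. SLC2A1 had means of 23.5 ± 9.03 CPM (SD, n = 3) in the syn-gRNA KD group and 23.2 ± 5.36 CPM in its NTC group, against 47.2 to 69.5 CPM in the 6 plasmid groups. NDRG1 had 89.0 ± 12.5 and 94.2 ± 4.74 CPM, against 187 to 214 CPM. EGLN3 had 5.86 ± 1.27 and 5.53 ± 1.25 CPM, against 8.73 to 10.2 CPM. NDRG1 and SLC2A1, which had the larger differences, were chosen for a fuller account after their values were seen. NDRG1 lies at 8:134249414-134314265 (hg19, minus strand) and SLC2A1 at 1:43391046-43424847 (minus strand).

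The single libraries show the size of the gap. NDRG1 in syn-gRNA KD libraries A, B and C was at 75.2, 99.7 and 92.1 CPM and in NTC at 93.9, 89.7 and 99.1 CPM. In the pre-gRNA setup it was at 197, 255 and 154 CPM in KD and 234, 248 and 159 CPM in NTC, and in the gRNA setup at 269, 183 and 146 and at 233, 183 and 147 CPM. In the agoshRNA setup it was at 306, 181 and 102 CPM in KD and 264, 208 and 90.4 CPM in NTC. The gRNA and pre-gRNA libraries all lay above every syn-gRNA library, while library C of the agoshRNA setup lay within or next to the syn-gRNA range.

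SLC2A1 had a like layout. Its syn-gRNA libraries ran from 13.3 to 30.5 CPM. Libraries A, B and C of the pre-gRNA setup were at 66.8, 95.0 and 34.1 CPM in KD and 85.6, 90.9 and 32.0 CPM in NTC, so that each was above the syn-gRNA range. In the agoshRNA setup they were at 95.5, 42.6 and 21.1 CPM in KD and 74.5, 45.5 and 21.5 CPM in NTC, and library C of both arms lay inside it.

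In the model of 24 libraries (DESeq2 Wald contrasts), NDRG1 had a log2 difference from syn-gRNA of 0.96 (agoshRNA), 0.85 (gRNA) and 1.19 (pre-gRNA) in the NTC groups, with an SE of 0.41 and adjusted p-values of 0.243, 0.381 and 0.0761. In the KD groups the differences were 1.11, 1.14 and 1.15, with adjusted p-values of 0.115, 0.135 and 0.105. SLC2A1 had differences of 0.97, 0.98 and 1.61 in the NTC groups (SE 0.58, adjusted p 0.542, 0.546 and 0.101) and of 1.12, 1.38 and 1.47 in the KD groups (adjusted p 0.344, 0.247 and 0.179). None of these passed. The call turned with the libraries in the model: with only the 6 libraries of a pair, NDRG1 passed in gRNA minus syn-gRNA NTC (0.83, adjusted p = 0.0204), pre-gRNA minus syn-gRNA NTC (1.19, adjusted p = 0.0113) and pre-gRNA minus syn-gRNA KD (1.17, adjusted p = 0.0479), and SLC2A1 in pre-gRNA minus syn-gRNA NTC (1.61, adjusted p = 0.00733).

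The other members pointed both ways. EGLN3, the oxygen-dependent hydroxylase PHD3 that marks HIF alpha for degradation and is itself a HIF target, had log2 differences of 0.51 to 0.74 above syn-gRNA over the 6 contrasts. VEGFA (-0.45 to -0.26), ADM (-0.71 to -0.33), ANKRD37 (-0.51 to -0.17), P4HA1 (-0.88 to -0.21) and PDK1 (-0.85 to -0.53) had values below 0 in each. BNIP3, a mitochondrial protein that promotes mitophagy, lay between 0.0 and 0.31. With offsets for GC content per library the signs of NDRG1, SLC2A1, EGLN3, VEGFA, ADM, P4HA1 and PDK1 held in all 6 contrasts, while ANKRD37 was above 0 in 2 and BNIP3 below 0 in 2.

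Called members numbered 0 in each of the 12 contrasts between setups. In the NTC groups 0.0496% of all genes passed for agoshRNA minus gRNA, 0.0347% for agoshRNA minus pre-gRNA, 1.84% for agoshRNA minus syn-gRNA, 0.0% for gRNA minus pre-gRNA, 1.32% for gRNA minus syn-gRNA and 3.25% for pre-gRNA minus syn-gRNA. In the KD groups the shares were 0.0446%, 0.0446%, 3.14%, 0.0%, 1.58% and 2.52% in that order.

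Ranges that did not overlap with syn-gRNA were more common than calls, among all genes too. In the NTC groups 0 members were apart from syn-gRNA with agoshRNA (18.9% of all genes were), 4 with gRNA (29.8%) and 5 with pre-gRNA (29.0%). The 4 that were higher in both were BNIP3, NDRG1, EGLN3 and SLC2A1, and P4HA1 was lower with pre-gRNA. In the KD groups NDRG1 alone was apart with agoshRNA (15.6% of all genes), NDRG1, EGLN3 and SLC2A1 were higher with gRNA (25.9%), and the same 3 were higher and P4HA1 lower with pre-gRNA (25.9%).

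Among 31 tested other HIF targets, STC2, a secreted glycoprotein, passed in all 6 contrasts with syn-gRNA. It was higher by a log2 of 0.85, 1.05 and 1.2 in the NTC groups of agoshRNA, gRNA and pre-gRNA (DESeq2 adjusted p = 0.00104, 7.08e-05 and 3.22e-07) and by 0.92, 0.92 and 1.07 in the KD groups (adjusted p = 0.000148, 0.00023 and 3.22e-06). DDIT4, an inhibitor of mTORC1 signalling, was higher with gRNA in the KD groups (1.28, adjusted p = 0.0172) and with pre-gRNA in both (1.39, adjusted p = 0.00459 and 1.23, adjusted p = 0.018). STC2 and DDIT4 also respond to other stresses. Of 14 tested regulators of the pathway, ARNT2, a partner of the HIF alpha subunits, passed in 1 contrast, pre-gRNA minus syn-gRNA NTC (1.19, adjusted p = 0.029). With GC offsets these genes stayed called, at 0.66 to 0.94 for STC2, 0.91 to 0.98 for DDIT4 and 0.94 for ARNT2. Without the offsets 1 or 2 of the 31 targets and at most 1 of the 14 regulators passed per contrast with syn-gRNA. Of all genes 1.32% to 3.25% passed in these contrasts. The calls depended on the tool. With edgeR 0 genes of all passed for gRNA minus syn-gRNA NTC, so STC2 did not pass there, and 16 passed for agoshRNA minus syn-gRNA NTC. Whether STC2, DDIT4 and ARNT2 passed with edgeR in the other contrasts is not given here.

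The members also varied between the letters of a setup. A likelihood-ratio test in DESeq2 compared letters within a setup, with the arm as a covariate, so that each letter had a KD and an NTC library. It called 8 of 9 members with agoshRNA (62.7% of all genes were called), 7 with gRNA (41.9%), 8 with pre-gRNA (67.5%) and 6 with syn-gRNA (9.86%). The distance between the highest and lowest letter had a median over the members of 1.82, 0.93, 0.80 and 0.82 log2, against 1.05, 0.79, 1.01 and 0.33 over all genes tested. The median of the members lay above that of all genes with agoshRNA, gRNA and syn-gRNA, and below it with pre-gRNA.

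KD and NTC libraries of the same letter were close. The median gap between them was 0.14 log2 over the 9 members and 12 pairs, against 0.644 between libraries of other letters in the same arm (24 pairs). For all genes the gaps were 0.189 and 0.422. The order of the 3 letters was the same in KD and NTC for 9 of 9 members with agoshRNA (63.6% of all genes), 6 with gRNA (50.9%), 6 with pre-gRNA (65.9%) and 5 with syn-gRNA (29.8%).

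P4HA1, the catalytic subunit of the prolyl hydroxylase that matures collagen, had the widest distance. With agoshRNA it was at 59.0, 372 and 155 CPM in KD libraries A, B and C and at 72.5, 364 and 176 CPM in NTC, so B was highest and A lowest in both arms. The letter distance was 2.75 log2 (DESeq2 likelihood-ratio test, adjusted p = 2.45e-38). With gRNA it was at 69.6, 279 and 209 CPM in KD and 118, 246 and 218 CPM in NTC, again with A lowest (1.55, adjusted p = 2.05e-08). With pre-gRNA it was at 149, 101 and 214 CPM in KD and 128, 91.7 and 198 CPM in NTC, with B lowest (0.75, adjusted p = 5.88e-11), though with GC offsets B was highest and A lowest. With syn-gRNA it was even, from 231 to 256 CPM over all 6 libraries (0.16, adjusted p = 0.586).

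PDK1, the kinase that shuts pyruvate out of the mitochondrial citric acid cycle, followed P4HA1 in part. With agoshRNA it was at 25.2, 134 and 19.0 CPM in KD and 36.2, 124 and 29.3 CPM in NTC. Letter B stood apart from both others there (2.55 log2, adjusted p = 8.5e-33). With gRNA it was at 37.9, 84.3 and 92.4 CPM in KD and 59.8, 66.2 and 96.2 CPM in NTC (0.93, adjusted p = 0.00437). With pre-gRNA it was at 76.1, 31.7 and 88.9 CPM in KD and 58.6, 31.9 and 82.8 CPM in NTC, with B lowest (1.08, adjusted p = 1.51e-11). With syn-gRNA A was lowest, at 76.5 CPM in KD and 72.5 CPM in NTC against 106 to 138 CPM in B and C (0.82, adjusted p = 3.22e-09).

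SLC2A1 and NDRG1 did not share the order of P4HA1 among letters. Letter C was lowest for SLC2A1 in the 3 plasmid setups, with a distance of 1.82 with agoshRNA (adjusted p = 3.71e-13), 1.43 with gRNA (adjusted p = 2.31e-06) and 1.84 with pre-gRNA (adjusted p = 4.53e-29). NDRG1 was also lowest in C there, with distances of 1.4, 0.82 and 1.03 (adjusted p = 3.68e-10, 0.00686 and 9.11e-16). With syn-gRNA letter A was lowest for SLC2A1, at 13.3 CPM in KD against 30.5 and 26.6 CPM in B and C, and at 17.4 CPM in NTC against at most 28.1 CPM (0.96, adjusted p = 4.18e-05), and NDRG1 did not pass (0.30, adjusted p = 0.201).

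EGLN3 was highest in letter A of each plasmid setup, at 17.3 CPM in both arms with agoshRNA against 2.23 and 3.16 CPM in C. Its distances were 2.53, 1.08 and 0.80 with agoshRNA, gRNA and pre-gRNA (adjusted p = 4.54e-11, 0.000666 and 0.00796), and with syn-gRNA it did not pass (adjusted p = 0.215). Part of its locus (14:34393437-34931980, minus strand) is shared with SPTSSA, at a mean of 30.2 CPM, on the same strand. BNIP3 with agoshRNA was at 175, 226 and 77.1 CPM in KD and 182, 238 and 85.5 CPM in NTC, so C was lowest (1.61, adjusted p = 7.15e-15). It was nearly level with gRNA (0.37, adjusted p = 0.323), and its distances were 0.46 with pre-gRNA (adjusted p = 0.0011) and 0.51 with syn-gRNA (adjusted p = 0.000116).

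ANKRD37 was at 16.3, 37.5 and 7.96 CPM in the KD and 15.9, 32.7 and 9.58 CPM in the NTC libraries of the agoshRNA setup, with B highest and C lowest (2.1 log2, adjusted p = 2.87e-15). With GC offsets it was nearly level in A and B there (B minus A -0.05 log2), and C stayed lowest. Its distances were 0.78 with gRNA (adjusted p = 0.0194), 0.52 with pre-gRNA (adjusted p = 0.0414) and 1.36 with syn-gRNA (adjusted p = 3.6e-11). It overlaps UFSP2 on the other strand, at a mean of 26.5 CPM, so its reads cannot be told apart from those of UFSP2 in the overlap. ADM had distances of 1.08, 1.16, 1.31 and 1.4 over the 4 setups (adjusted p = 0.000669, 0.000632, 2.07e-08 and 3.16e-12). C was its lowest letter in each plasmid setup.

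VEGFA had the narrowest range of the detected members in CPM. In the plasmid setups its 18 libraries lay between 87.4 and 129 CPM, and its letter distances of 0.35, 0.31 and 0.29 did not pass (adjusted p = 0.247, 0.333 and 0.055). With GC offsets they were 0.77, 0.63 and 0.33, and each passed (adjusted p = 8.92e-06, 0.0194 and 0.0156). With syn-gRNA it did pass (0.84, adjusted p = 3.26e-13): KD libraries A, B and C were at 91.6, 154 and 155 CPM and NTC libraries at 90.1, 143 and 149 CPM. Over both arms together, letter A of the syn-gRNA setup was the lowest for all 9 members on CPM, DESeq2 size factors, TMM factors and GC offsets, though NDRG1, P4HA1 and EGLN3 did not pass. In single arms A was above B for NDRG1 in NTC (93.9 against 89.7 CPM) and for P4HA1 in KD (241 against 231 CPM). There ADM was at 12.4 and 11.4 CPM in A and 23.7 to 30.9 CPM in B and C, and ANKRD37 at 13.8 and 13.2 CPM in A and 22.7 to 35.2 CPM in B and C.

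These counts rest on few libraries. The syn-gRNA count fell from 6 to 1 without KD library A, the gRNA count from 7 to 2 without KD library C and to 2 without NTC library C, and the pre-gRNA count from 8 to 5 without either library C. Calls among all genes moved too when 1 library was left out. They ran from 65 to 976 with syn-gRNA (1826 with every library), 2370 to 9294 with gRNA (7689) and 8862 to 10717 with pre-gRNA (12642). Which letter was highest flipped between CPM and size factors for ADM and VEGFA with agoshRNA, for ANKRD37, BNIP3 and VEGFA with pre-gRNA, and for SLC2A1, VEGFA, NDRG1 and P4HA1 with syn-gRNA. The letter that was lowest flipped only for VEGFA with pre-gRNA. Going from size factors to CPM moved a library by -0.29 to 0.18 log2, and by less than 0.1 in 10 of 24.

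Libraries also differed in the levels of genes by GC content, and the letters differed in this. Whether this arose in the cells or in the making of the libraries was not tested, and offsets for GC content cannot tell these apart. Each gene's log2 level was first set against its mean over the 24 libraries. The median of genes under 40% GC minus that of genes over 60% GC ran from -1.74 (agoshRNA KD library A) to 1.35 (agoshRNA KD library B). In the syn-gRNA setup it ran from 0.19 to 0.70. Among the members P4HA1 (40.8% GC) and PDK1 (39.8%) rose with this gap over the 24 libraries (Pearson's r 0.92 and 0.78, Spearman's rho 0.76 and 0.79). SLC2A1 (54.8% GC) and NDRG1 (52.1%) fell with it (r -0.73 and -0.62, rho -0.62 and -0.62). EGLN3 had an r of -0.49, ADM of -0.33, ANKRD37 of 0.28, VEGFA of 0.15 and BNIP3 of -0.02. The libraries are not independent here, since same-letter libraries share a setup.

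With offsets for GC content in each library 9 of 9 members were called over the letters with agoshRNA, 6 with gRNA, 7 with pre-gRNA and 7 with syn-gRNA, while the background fell to 46.4%, 18.3%, 47.3% and 10.6% of all genes. Of the members called without offsets 8, 5, 6 and 6 stayed called, and 1 was gained in each setup, VEGFA in the plasmid setups and P4HA1 with syn-gRNA (0.31, adjusted p = 0.0194). Restricted to genes that averaged 50 counts or more, without the offsets, 8, 7, 7 and 6 members were called, against 72.9%, 51.8%, 81.4% and 13.6%. P4HA1 with agoshRNA shrank most, from 2.75 to 1.06 log2 (adjusted p = 2.11e-09). PDK1 with agoshRNA became 1.76 and stayed called, but it lost its call with gRNA (0.34, adjusted p = 0.299) and with pre-gRNA (0.27, adjusted p = 0.107), where the highest letter turned from C to B. NDRG1 with gRNA (0.48, adjusted p = 0.102) and BNIP3 with pre-gRNA (0.17, adjusted p = 0.391) also lost it. P4HA1 with pre-gRNA stayed called (0.58, adjusted p = 7.71e-08), but its highest letter turned from C to B and its lowest from B to A. The highest letter also turned from B to A for ANKRD37 with agoshRNA and ADM with pre-gRNA. For NDRG1 with agoshRNA and ADM with gRNA it turned from A to B. The calls of these ANKRD37, ADM and NDRG1 distances held, with C lowest. EGLN3 with agoshRNA kept 2.40 and SLC2A1 with agoshRNA 1.49, and with syn-gRNA each of the 6 called members stayed called.

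Members were then compared with each other across libraries. Among the 36 pairs of the 9 genes, Pearson's r of log2 CPM over the 24 libraries was positive for 27, with a median of 0.36 and a range of -0.68 to 0.95. Over pairs of all 13835 genes that averaged 50 counts or more the median was 0.07, and 52.6% were positive. NDRG1 and SLC2A1 were most alike (r 0.95), and P4HA1 and SLC2A1 least (r -0.68). With group means removed 30 of 36 pairs were positive (median 0.52; all genes 0.09 and 52.7%). With GC offsets 29 were positive (median 0.48; all genes 0.0 and 50.2%), and with both 34 were (median 0.64; all genes 0.0 and 50.3%).

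P4HA1 and SLC2A1, at -0.62 with group means removed, came to 0.16 once GC offsets were applied as well. NDRG1 and SLC2A1 stayed at 0.92. The most negative value then left was -0.29, for P4HA1 and EGLN3. These r describe libraries that share letters, depth and base composition, so no p is given, and the versions with offsets and without group means were added after the data were seen.

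The genes whose log2 CPM followed the mean standardised level of the 9 members best, among 13826 others, were NRN1 (r 0.94), TMEM45A (0.91), RBM3 (0.90), RP11-1148L6.9 (0.90) and SLC2A3 (0.89). NRN1 encodes a membrane-anchored neurite-growth protein, RBM3 a cold-inducible RNA-binding protein and SLC2A3 the glucose transporter GLUT3. With group means removed the same 5 genes led, at 0.97 for RBM3, 0.95 for NRN1 and for SLC2A3, 0.94 for RP11-1148L6.9 and 0.93 for TMEM45A. TMEM45A and SLC2A3 are also on the list of other HIF targets.

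The rest of the pathway was read over the letters from lists chosen with earlier results known. Beside each list's share stands that of all genes called, 62.7% with agoshRNA, 41.9% with gRNA, 67.5% with pre-gRNA and 9.86% with syn-gRNA. Of 14 tested HIF regulators 10, 5, 9 and 1 passed in these setups (71.4%, 35.7%, 64.3% and 7.14%), near the shares of all genes. HIF1A, the oxygen-regulated alpha subunit, differed by 2.75 log2 with agoshRNA (lowest in A, adjusted p = 3.07e-24), by 2.03 with gRNA (lowest in A, adjusted p = 3.45e-14) and by 2.24 with pre-gRNA (lowest in B, adjusted p = 1.5e-32). With GC offsets these were 0.63, 0.47 and 0.71 (adjusted p = 0.0137, 0.169 and 3.35e-05), so the call was lost with gRNA. EGLN1, the main HIF hydroxylase, differed by 1.99 with agoshRNA (adjusted p = 1.97e-23; 1.5 with offsets) and was the 1 regulator called with syn-gRNA (0.45, adjusted p = 0.0178). VHL differed by 1.05 with agoshRNA (adjusted p = 3.73e-06), lowest in B. HIF1A is also regulated after translation, and its RNA says nothing of its protein here.

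Of 31 tested other HIF targets 25, 17, 28 and 14 passed (80.6%, 54.8%, 90.3% and 45.2%, against 62.7%, 41.9%, 67.5% and 9.86% of all genes). In the syn-gRNA setup, letter A was lowest in 12 of the 14 and C highest in 10. HILPDA, a lipid-droplet protein, differed there by 1.38 (adjusted p = 2.72e-18; 1.37 with GC offsets), SLC2A3 by 0.90 (adjusted p = 2.6e-06) and PFKFB4, a regulator of glycolysis, by 0.85 (adjusted p = 3.61e-05), each lowest in A. KLHL24 went the other way, highest in A (0.78, adjusted p = 2.89e-06). With agoshRNA PLOD2, a collagen lysyl hydroxylase, had 3.26 (adjusted p = 5.8e-46, and 1.16 with offsets). KDM3A, a histone demethylase, had 2.89 there (adjusted p = 3.1e-35, and 1.54 with offsets). Both were lowest in A as P4HA1 was. Of the 25 other HIF targets called with agoshRNA, however, 9 were lowest in A and 15 in C.

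The core glycolytic enzymes, which HIF also induces, passed for 13, 13, 15 and 9 of 15 (against the same shares of all genes, 62.7%, 41.9%, 67.5% and 9.86%). Letter C was their lowest in 12, 13 and 15 of the called genes with agoshRNA, gRNA and pre-gRNA, and letter A in 9 of 9 with syn-gRNA. That is the lowest letter of SLC2A1 in each setup. ALDOA with pre-gRNA differed by 1.89 (adjusted p = 4.33e-62; 1.29 with GC offsets) and LDHA with agoshRNA by 1.89 (adjusted p = 3.37e-22; 1.62 with GC offsets). In the KD comparison 0 genes of any list passed.

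Lists of other states that change with growth were read for the letters too. Of 9 tested YAP targets that respond to cell contact 5, 4, 5 and 3 passed (55.6%, 44.4%, 55.6% and 33.3%, against 62.7%, 41.9%, 67.5% and 9.86% of all genes). Of 15 proliferation genes 11, 8, 14 and 3 passed, and of 15 targets of the integrated stress response 15, 10, 15 and 3, beside the same shares of all genes. CYR61, a YAP target, differed by 1.04 with syn-gRNA (adjusted p = 5.18e-07), lowest in A, while the other 2 called there, TEAD1 (0.59, adjusted p = 0.00239) and AMOTL2 (0.70, adjusted p = 0.0262), were highest in A. MKI67, a marker of cycling cells, was highest in A there (0.53, adjusted p = 4.48e-05), as was TOP2A (0.41, adjusted p = 0.00726), while RRM2 was lowest in A (0.38, adjusted p = 0.00643). With agoshRNA MKI67 was highest in B and lowest in A (2.72, adjusted p = 1.25e-24). With gRNA it was highest in C and lowest in A (1.53, adjusted p = 5.8e-13). With pre-gRNA it was highest in C and lowest in B (2.79, adjusted p = 1.62e-91). MCM2 (1.39), MCM5 (1.31) and AURKB (1.43) with pre-gRNA were the reverse, highest in B and lowest in C. Of the 14 proliferation genes called there, 6 were highest in B and 6 in C, 7 lowest in B and 6 in C. With agoshRNA 8 of the 11 called were highest in B and 7 lowest in A. With gRNA 5 of the 8 called were highest in C and 5 lowest in A. Among setups, ANKRD1, a YAP target, passed for agoshRNA minus pre-gRNA NTC (3.01, adjusted p = 0.0467), and CHAC1, a stress-response gene, for agoshRNA minus syn-gRNA KD (2.74, adjusted p = 0.00445). CCNB2, a proliferation gene, passed for pre-gRNA minus syn-gRNA NTC (-0.62, DESeq2 adjusted p = 0.0233) and KD (-0.58, adjusted p = 0.0419). With GC offsets CCNB2 lost both calls (adjusted p = 0.43 and 0.449). Of all genes 0.0347%, 3.14%, 3.25% and 2.52% passed in these contrasts, in the order given. Culture density was not measured in these files, and its part in the letter differences was not tested.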

How the data were processed

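Each of the 4 deposited tables holds the same raw counts per gene for all 24 libraries, made by the authors with Trim Galore, STAR 2.7.3a and featureCounts on hg19, per the submitters' processing notes. The tables also hold the authors' log2 fold change and p-value of KD against NTC from DESeq2, used here only where named. The 24 columns of normalised values in each were not used.

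Genes that reached 10 counts in 3 or more libraries of a fit were tested with DESeq2 1.42.0 in R 4.3.3, since the series' design text names DESeq2, and called at a Benjamini-Hochberg adjusted p under 0.05 over all genes tested. KD was compared with NTC in the 6 libraries of a setup, setups in 1 model of 24 libraries, and letters by a likelihood-ratio test with the arm as a term. The calculations were tested on simulated data. Alternatives were edgeR 4.0.16, TMM factors, other count filters, each library left out, offsets per library for GC content (known for 93.2% of genes) and the letter as a block. CPM were computed from the total count of a library, with a pseudocount of 0.5 for log2. CPM rest on raw counts, so their precision follows the depth of a library, and counting limits cover counting error only.

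Same-letter KD and NTC libraries of a setup deviated together from their group means (r 0.28 to 0.95, over 0.1 in 12 of 12 pairs), so the letter pairs libraries within a setup. The members and gene lists were chosen with earlier results of these data known. All members are named with levels. Fold changes of KD against NTC are given singly for the highest and lowest member in each setup and for called members. Of the lists, up to 4 called genes per comparison by smallest adjusted p could be named, and so could the 5 genes most like the members.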

Additional observations from a re-analysis of the deposited data

How the results depend on the processing

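No member was called for KD against NTC, or for the KD effect between setups, under any alternative run, including the letter as a replicate block, which left 0 members called in each setup with smaller errors (smallest member p 0.123). The block called 1 gene of all with syn-gRNA, with and without GC offsets, and changed no other call. The KD fold changes named in the text changed sign when 1 library was left out: with agoshRNA SLC2A1 ranged from -0.43 to 0.56 and ADM from -0.52 to 0.04; with gRNA SLC2A1 from -0.20 to 0.72 and VEGFA from -0.16 to 0.07; with pre-gRNA ANKRD37 from -0.01 to 0.33 and SLC2A1 from -0.67 to 0.34; with syn-gRNA ANKRD37 from -0.12 to 0.50 and NDRG1 from -0.20 to 0.04.

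Between setups, a model of only the 6 libraries of a pair called 1 member for gRNA minus syn-gRNA NTC, 2 for pre-gRNA minus syn-gRNA NTC and 1 for pre-gRNA minus syn-gRNA KD. Leaving out 1 library gave 0 to 1 members for agoshRNA minus syn-gRNA KD (1 without agoshRNA KD library B, where the count of all genes rose from 634 to 2183) and 0 to 1 for pre-gRNA minus syn-gRNA NTC (1 without pre-gRNA NTC library C). Against syn-gRNA (NTC and KD; agoshRNA, gRNA, pre-gRNA), counts of all genes of 371 and 634, 266 and 318, and 656 and 508 became 16 and 192, 0 and 38, and 149 and 183 with edgeR, 1423 and 1632, 1137 and 991, and 1724 and 1535 with GC offsets, and 238 and 357, 153 and 191, and 383 and 266 with the mean filter. With 6 libraries they were 235 for agoshRNA KD, 1018 for gRNA NTC and 1319 for pre-gRNA NTC.

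Among letters, leaving out 1 library gave 7 to 8 members with agoshRNA, 2 to 8 with gRNA, 5 to 7 with pre-gRNA and 1 to 6 with syn-gRNA, where each fit then has fewer libraries, and 6407 to 10456, 2370 to 9294, 8862 to 10717 and 65 to 976 genes. Other settings gave 8 to 9, 6 to 7, 7 to 9 and 6 to 8 members; all genes became 3369 for gRNA with GC offsets and 4621 for syn-gRNA with edgeR. PDK1 with pre-gRNA turned over with GC offsets (0.27), P4HA1 there changed its highest and lowest letters and stayed called (0.58), and ANKRD37 there fell short with the mean filter (0.45, adjusted p = 0.0821). All 72 group levels stayed within 1 SD with size factors in place of CPM. CA9 did not reach the count filter, and the other 9 members did.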
